A study of Mus musculus with 48 samples.

Results

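Cells grown from lung metastases that followed micro-injection of 4T1 carcinoma cells into the axillary lymph node (AxLN-LuM) were compared with the line that had been injected. The comparison held 9 arrays of 3 AxLN-LuM sub-clones, all titled number 1 and taken 14, 36 and 43 days after injection, and 4 arrays of the parental 4T1-mCherry-rLuc line (mCh/rL). These are 13 of the 48 arrays of the series, and they were chosen by their titles alone. 4T1 is a mouse mammary carcinoma line of the balb/c strain, and both the sub-clones and the parental line carried the mCherry fluorescent protein and Renilla luciferase, with no treatment before RNA was taken. Each sub-clone is a single line, recovered from digested lung and kept under thioguanine until pure colonies remained, whereas the methods describe selection of the parental line with puromycin. Passage through the mouse, digestion, drug selection and colony growth therefore cannot be told apart in any difference given here. The 3 arrays of a sub-clone are separate cultures of 1 line, so tests between arrays measure the spread between cultures, and tests between sub-clones the spread between 3 lines. The titles of these sub-clones name no plate, so the plate was taken from the order of the arrays in the series. By that order the day 14 and day 36 sub-clones were on plate 1 and share its 2 mCh/rL parental arrays. The day 43 sub-clone was by the same order on plate 2 and was set against the 2 mCh/rL parental arrays of that plate. Each day stands for 1 sub-clone, so day and sub-clone cannot be told apart. A gene said to rise or fall at a day was higher or lower in that sub-clone than in the parental line. No change over time was followed. A further AxLN-LuM sub-clone, number 5 of day 14, has arrays marked removed, for which the labels give no reason, and it is given by values only. For context, values are also given for the other parental line, 4T1-GFP/fL, which carries GFP and firefly luciferase, and for 3 sub-clones grown from the injected node tumors (AxLN) of days 7 and 14, which derive from mCh/rL as well.

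Expression was read as linear intensity on Affymetrix Mouse Gene 2.1 ST arrays, and every difference is AxLN-LuM minus mCh/rL parental on the log2 scale, on which 1 unit is a factor of 2. Array sums lay between 6414228 and 6658224, and the number of arrays limits the precision. The tests covered 11565 of 18964 protein-coding genes, those with a mean at or above the median probe set. The carcinoma markers were bright in every array: Krt8, an epithelial keratin, lay at 2184 to 3085 in AxLN-LuM and 2540 to 2701 in mCh/rL, and the adhesion molecule Epcam at 362 to 578 in AxLN-LuM and 503 to 529 in mCh/rL. Some defining markers of host cells stayed near the median probe set. Ptprc of leukocytes lay at 4.40 to 7.25 in AxLN-LuM and 4.32 to 5.17 in mCh/rL. Pecam1 of endothelium lay at 5.09 to 8.90 in AxLN-LuM and 6.09 to 8.62 in mCh/rL. Sftpc of lung epithelium lay at 3.75 to 7.18 in AxLN-LuM and 3.81 to 6.12 in mCh/rL. Other listed markers were brighter in both groups, given here as AxLN-LuM, then mCh/rL. Of the myeloid markers, Cd68 lay at 34.2 to 96.3 and 91.7 to 114, and Cd14 at 39.5 to 160 and 82.1 to 96.6. Of the lung epithelial markers, Abca3 lay at 130 to 208 and 142 to 158.5, and Rtkn2 at 64.6 to 166 and 97.1 to 112. Egfl7 of endothelium lay at 18.1 to 31.4 and 24.9 to 29.5. The summed intensity of the 12 fibroblast markers was 101 to 386 in AxLN-LuM arrays and 163 to 198 in mCh/rL arrays, of which Pdgfra alone took 27.0 to 311 in AxLN-LuM and 85.0 to 123 in mCh/rL. Only 2 of the 12 fibroblast markers, 5 of 14 myeloid, 1 of 9 lymphocyte, 1 of 12 endothelial and 4 of 14 lung epithelial markers lay above the intensity filter. In such bulk cultures fewer cells of a type and less RNA per cell cannot be told apart. The summed intensity of the myeloid markers was 150.2 to 339 in AxLN-LuM arrays and 252 to 302 in mCh/rL arrays, and that of the lung epithelial markers 277 to 465 in AxLN-LuM arrays and 335 to 361 in mCh/rL arrays.

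Several of the genes below belong to known stress and defense programs. In the integrated stress response, kinases that sense amino acid shortage, unfolded protein or viral RNA slow general translation while raising translation of the transcription factor ATF4, which turns on genes of amino acid synthesis and import, the transcription factors Ddit3 (CHOP) and Atf3, and the pseudokinase Trib3. ATF4 pairs with C/EBP proteins on a composite element, TGATGNAA. In the type I interferon response, the receptor-bound kinases Jak1 and Tyk2 activate a transcription factor complex that binds the interferon-stimulated response element beside antiviral genes.

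The letters of both elements were looked up on both strands in RefSeq promoters of the GRCm38.p6 build, from 250 bases before to 50 bases after each gene's start. TGATGNAA stood in a promoter of 4.51% of 27025 genes (3.97% of 32851 promoters) and of 9 of the 27 integrated stress response genes with an entry (33.3%), and the interferon-stimulated response element, searched as GAAA, any 2 bases and GAAA, in a promoter of 3.99% of genes (3.44% of promoters) and of 10 of 20 interferon genes with an entry (50%). Windows around the match are shown for 3 genes of each group, whose values are given below, 5′ to 3′ on the strand of the gene, with the element in capitals, read as its reverse complement where it lies on the other strand.
Vldlr (chr19:27216790-27216857, plus strand): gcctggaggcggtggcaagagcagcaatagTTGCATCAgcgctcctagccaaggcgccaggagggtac
Slc7a11 (chr3:50443623-50443709, minus strand): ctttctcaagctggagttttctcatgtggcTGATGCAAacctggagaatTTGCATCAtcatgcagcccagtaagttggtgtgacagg
Chac1 (chr2:119351019-119351086, plus strand): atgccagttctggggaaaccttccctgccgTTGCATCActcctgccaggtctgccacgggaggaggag
Ifit1 (chr19:34640755-34640843, plus strand): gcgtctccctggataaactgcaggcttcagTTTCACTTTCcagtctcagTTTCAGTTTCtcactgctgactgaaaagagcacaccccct
Rsad2 (chr12:26456533-26456602, minus strand): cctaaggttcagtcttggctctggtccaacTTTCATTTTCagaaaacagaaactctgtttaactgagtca
Isg15 (chr4:156200845-156200926, minus strand): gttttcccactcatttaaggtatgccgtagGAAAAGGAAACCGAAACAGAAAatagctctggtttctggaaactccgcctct
Slc7a11 and Ifit1 hold 2 matches each and Isg15 holds 3 that overlap. A match describes the letters of the window and was not tested as a binding site.

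No gene passed the test across the 3 sub-clones, and the genes nearest to passing it differed from the parental line mostly by less than 1 log2 unit. On the low side they included the lipoprotein receptor Vldlr (-1.95 ± 0.92, SD of 3 sub-clones), the sodium pump subunit Atp1b1 (-1.35 ± 0.53), the fatty acid desaturase Scd1 (-0.99 ± 0.41), Herpud1 of the endoplasmic reticulum degradation machinery (-0.76 ± 0.22) and Phf10, a subunit of a chromatin remodeling complex (-0.72 ± 0.05). On the high side they included the kinase Dyrk1b (1.00 ± 0.60), the ubiquitin ligase Pdzrn3 (0.93 ± 0.34), the copper transporter Atp7a (0.74 ± 0.14), the unconventional cyclin Ccng2 (0.65 ± 0.17) and the histone methyltransferase Kmt2d (0.57 ± 0.22). With the sub-clone as replicate, limma called 0 of 11565 genes at an adjusted p under 0.05 (0% of all genes tested), and the lowest adjusted p was 0.14. At an unadjusted p under 0.05 there were 637 genes higher (5.51%) and 673 lower (5.82%) in AxLN-LuM, and 15 and 17 of these also lay under 0.001. The spread was wide between the AxLN-LuM sub-clones, with a pooled SD of 0.41. It was 0.24 between the 3 AxLN sub-clones and 0.16 between cultures of one line. The test shares 1 spread between the groups of sub-clones, so it can understate that of AxLN-LuM. Without the day 43 sub-clone 3 genes were called, all higher (Cxxc5, Mgat3 and Pdzrn3).

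In single arrays of these genes the groups mostly did not overlap. The genes were named for an unadjusted p under 0.001 with all 3 sub-clones on one side. Such separation therefore follows largely from the choice, and its share among all genes was not tested. Vldlr lay at 4.22, 5.79 and 8.52 at day 14, 7.34, 7.31 and 5.82 at day 36 and 24.5, 20.6 and 21.3 at day 43 in AxLN-LuM, against 32.2 and 38.6 on plate 1 and 38.8 and 43.5 on plate 2 in mCh/rL. Its highest AxLN-LuM array was below its lowest parental array, and the day 43 sub-clone kept more of it than the other 2. Pdzrn3 lay at 161, 154 and 148 at day 14, 162, 158 and 152 at day 36 and 114, 98.3 and 112 at day 43 in AxLN-LuM, against 73.0 and 69.5 on plate 1 and 69.8 and 80.2 on plate 2 in mCh/rL. All 9 AxLN-LuM arrays exceeded all 4 parental arrays, again by less at day 43. Phf10 was the most even of the low genes, at 500.3, 480.2 and 525 at day 14, 522, 495 and 521 at day 36 and 521, 519 and 509.8 at day 43 in AxLN-LuM, against 868 and 839 on plate 1 and 768 and 875 on plate 2 in mCh/rL. The 9 AxLN-LuM arrays spanned a narrower range than the 4 parental arrays and overlapped none of them. Scd1 lay at 192, 223 and 178 at day 14, 339, 359 and 315 at day 36 and 225, 196 and 198 at day 43 in AxLN-LuM, against 440.2 and 533 on plate 1 and 413 and 503 on plate 2 in mCh/rL. Here the day 36 sub-clone was nearest to the parental line. Of the other genes that the rule brought up, Zfp345, Acad10, Crip1, Tff2, Ubn2, Syt11, Tyk2 and Gm527 had mean differences between 0.56 and 0.84, and Atp6v1c2, Fjx1, Phlda1, Fkbp11, Gne, Them4, Kcnk10, B4galt2 and Rps6kl1 between -0.79 and -0.51. Gm5936 had the lowest p but overlapped, at 15.3, 35.4 and 27.6 at day 14, 30.9, 25.4 and 18.9 at day 36 and 55.4, 26.7 and 19.1 at day 43 in AxLN-LuM, against 22.4 and 8.42 on plate 1 and 20.2 and 19.2 on plate 2 in mCh/rL. None of its 3 sub-clones passed the test between arrays, and the parental array at 8.42 stood below the other 3. The GFP/fL parental line also differed from mCh/rL in several of these genes (GFP/fL minus mCh/rL), with Vldlr at -1.35, Atp1b1 at -0.75, Phf10 at -0.60, Pdzrn3 at 0.51 and Gm5936 at 1.07, while Dyrk1b stood at 0.19 and Tyk2 at -0.06. The part of the parental line's own level in these differences was not tested beyond these values.

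Some members of gene lists, named for low p values within their lists, were also separated in all arrays. Plat, the tissue plasminogen activator, lay at 92.7, 87.8 and 89.9 at day 14, 98.0, 103 and 99.9 at day 36 and 73.5, 86.6 and 88.9 at day 43 in AxLN-LuM, against 42.1 and 32.9 on plate 1 and 43.5 and 50.6 on plate 2 in mCh/rL. Its mean difference was 1.18 (SE 0.24, adjusted p = 0.32 in limma). The heme oxygenase Hmox1 lay at 81.2, 83.6 and 80.8 at day 14, 119, 88.6 and 90.5 at day 36 and 126, 139 and 134 at day 43 in AxLN-LuM, against 206 and 214 on plate 1 and 187 and 192 on plate 2 in mCh/rL. All AxLN-LuM arrays were lower, with a mean difference of -0.99 (adjusted p = 0.34 in limma). Gstm1, a glutathione transferase, had a mean difference of 0.83 and all arrays above those of the parental line. The margin was narrow, with the lowest AxLN-LuM array at 28.36 and the highest parental array at 28.02. Plat stood at -0.05 in GFP/fL minus mCh/rL, Hmox1 at 0.27 and Gstm1 at 0.88. Plat, Hmox1 and Gstm1 were named as members of lists of matrix proteases and of glutathione and antioxidant genes.

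**Figure D1:**
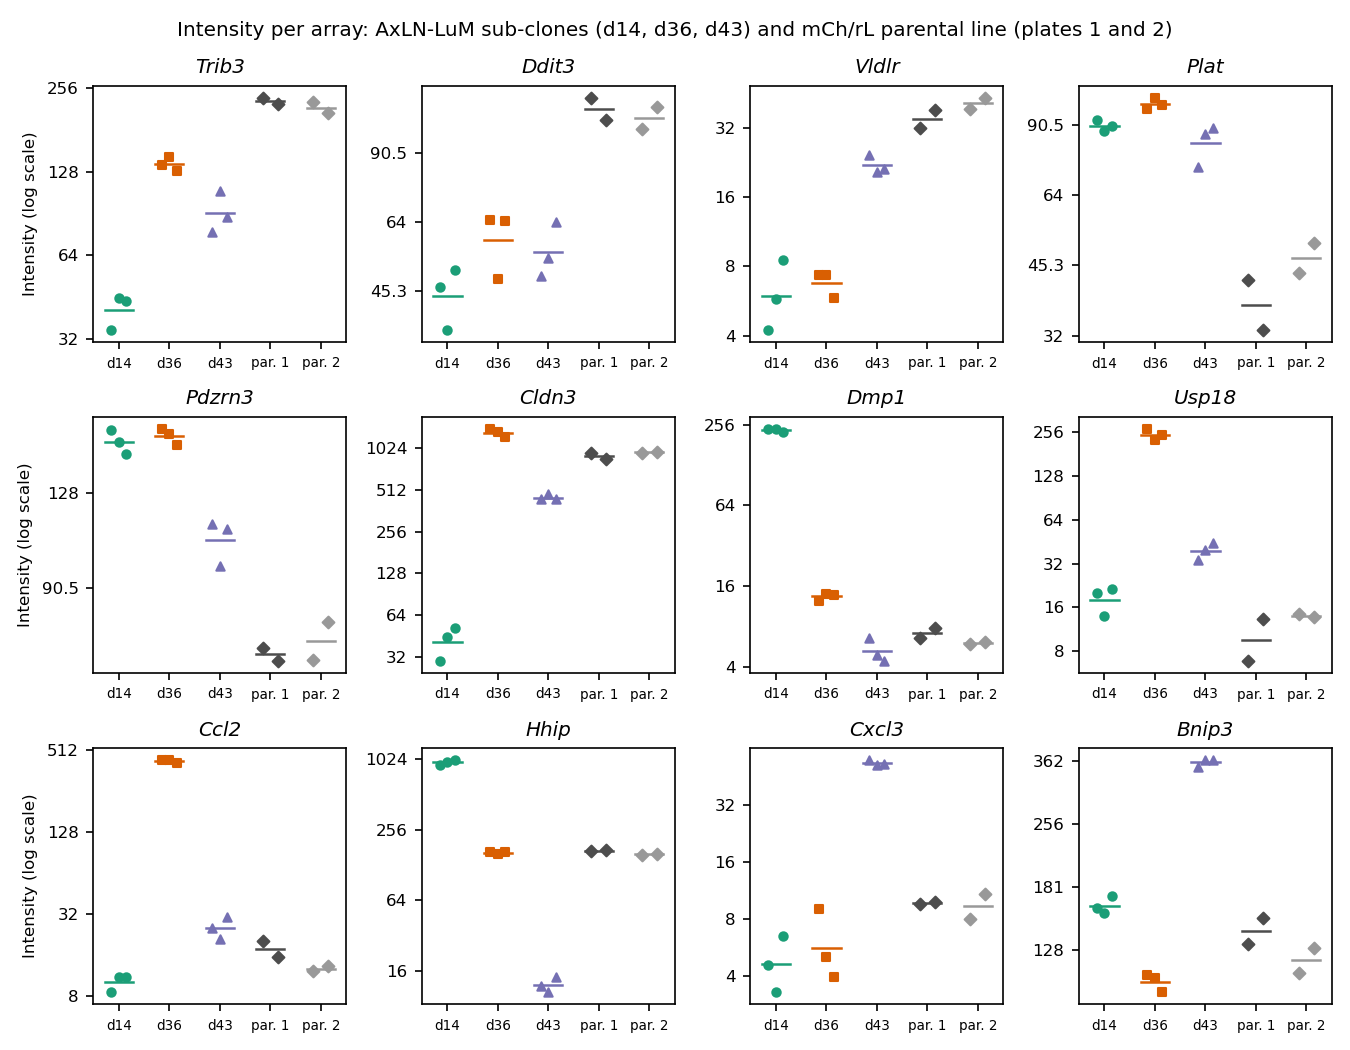
Intensity on a log axis of 12 genes in single arrays, with the AxLN-LuM sub-clones of days 14, 36 and 43 on the left and the mCh/rL parental arrays of plates 1 and 2 on the right. Points are cultures and lines geometric means. In the plots of Trib3, Ddit3, Vldlr, Plat and Pdzrn3 every AxLN-LuM array lies on one side of every parental array, and in the other 7 plots the sub-clones differ among themselves.

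Of the gene lists examined, the integrated stress response had the most members below the parental line. Of 34 genes listed, 33 were measured and 32 lay above the intensity filter. Their means were lower in AxLN-LuM in 31 of 32, and 24 were lower at an unadjusted p under 0.05, where 5.82% of all genes tested were. These p-values leave out the spread of the parental arrays. The median of the list was -0.52, and the median of all genes tested was -0.0065. No member was called between sub-clones (lowest adjusted p = 0.28). Its median was -0.91 at day 14, -0.35 at day 36 and -0.40 at day 43, and without any one sub-clone the median of the list lay between -0.40 and -0.65.

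Among the transcription factors and regulators, Trib3, which restrains ATF4 and CHOP, lay at 34.5, 44.9 and 43.9 at day 14, 135, 145 and 128 at day 36 and 77.9, 109 and 87.8 at day 43 in AxLN-LuM, against 236 and 223 on plate 1 and 227 and 207 on plate 2 in mCh/rL. All 9 AxLN-LuM arrays were below all 4 parental arrays, most at day 14. Ddit3 lay at 46.3, 37.2 and 50.3 at day 14, 64.7, 48.2 and 64.5 at day 36 and 48.9, 53.5 and 64.1 at day 43 in AxLN-LuM, against 119 and 107 on plate 1 and 102 and 114 on plate 2 in mCh/rL. The groups did not overlap, and the 3 sub-clones were close to each other, with differences of -1.35, -0.95 and -0.97. Atf4 itself lay at 467, 510.1 and 468 at day 14, 528, 523 and 458 at day 36 and 741, 718 and 695 at day 43 in AxLN-LuM, against 805 and 749 on plate 1 and 849 and 796 on plate 2 in mCh/rL. Its day 43 arrays came nearest to the parental ones (-0.20, adjusted p = 0.029 in limma), a call that was lost without replicate 1 of the plate 2 parental arrays (-0.15). Sesn2, a leucine-sensing inhibitor of mTORC1, had differences of -1.55, -0.70 and -0.97 at days 14, 36 and 43.

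Among the transporters and enzymes, Slc7a11, the cystine importer, lay at 68.9, 74.1 and 54.9 at day 14, 159, 164 and 157 at day 36 and 101, 80.2 and 96.2 at day 43 in AxLN-LuM, against 227 and 205 on plate 1 and 213 and 229 on plate 2 in mCh/rL. The groups did not overlap, and the day 36 sub-clone was the nearest to the parental line. Its partner Slc3a2, the shared heavy chain of several amino acid transporters, lay at 1477, 1359 and 1507 at day 14, 1943, 1920.4 and 1904 at day 36 and 1739, 1914 and 1986 at day 43 in AxLN-LuM, against 2579 and 2465 on plate 1 and 2507 and 2439 on plate 2 in mCh/rL. Chac1, which degrades glutathione, lay at 28.8, 29.4 and 26.5 at day 14, 91.7, 75.5 and 86.9 at day 36 and 72.7, 62.9 and 75 at day 43 in AxLN-LuM, against 125 and 104 on plate 1 and 124 and 133 on plate 2 in mCh/rL. Neither gene overlapped between the groups, and the mean difference was -1.10 for Chac1 and -0.53 for Slc3a2. Without replicate 1 of the plate 1 parental arrays the day 36 calls of Slc7a11 (-0.36) and Chac1 (-0.30) were lost. Gpt2, a mitochondrial alanine transaminase, had differences of -2.40, -0.57 and -0.70, and Stc2, a secreted glycoprotein, of -1.79, -0.54 and -1.35. For Stc2 the day 36 difference did not pass the test (adjusted p = 0.071). The serine and asparagine synthesis genes Psat1, Phgdh and Asns fell by 0.91, 0.66 and 1.10 at day 14, and neither Psat1 nor Phgdh passed at day 43.

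Each sub-clone was also tested against the 2 parental arrays of its plate, with the spread between cultures as error and an adjusted p under 0.05 in limma as the threshold. In that test 27 of the 32 genes were called lower and 0 higher in the day 14 sub-clone, where 20.3% of all genes tested were called lower and 21.5% higher. In the day 36 sub-clone 23 were called lower and 1 higher, where 20.8% and 19.6% of all genes were, and in the day 43 sub-clone 24 lower and 0 higher, where 17.7% and 14.1% were. The member called higher at day 36 was Aldh1l2, a mitochondrial folate enzyme (0.72), which was lower at day 43 (-1.10). That call was lost without replicate 2 of the plate 1 parental arrays (0.54). Cebpb, a partner of ATF4, had a mean difference of 0.12 and passed in no sub-clone.

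The level of the parental line bears on this list. The GFP/fL parental line was itself lower than mCh/rL in 30 of the 32 genes, with a median difference of -0.63 (GFP/fL minus mCh/rL). Examples are Trib3 at -1.39, Gpt2 at -1.38 and Ddit3 at -0.74. With the mean of both parental lines as baseline the median of the list was -0.25 in place of -0.52. Under that baseline the day 36 differences were 0.14 for Gpt2, 0.11 for Slc7a11, 0.10 for Chac1 and -0.07 for Trib3, and none of the 4 passed. At day 43 Gpt2 differed by -0.03 and Atf4 by 0.02, and neither passed. The median over the list in the AxLN sub-clones, was 0.05 against mCh/rL. AxLN-LuM minus AxLN had a median of -0.58, with 19 of 32 lower and 0 higher at an unadjusted p under 0.05 (5.63% and 5.64% of all genes tested). That contrast is between sub-clones and called 0 genes after adjustment, with 1303 at an unadjusted p under 0.05. Trib3 differed in it by -2.03 and Slc7a11 by -1.53. In the removed sub-clone number 5 the median of the list was 0.36 against its parental arrays, with Ddit3 at 2.44 and Trib3 at 1.56.

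**Figure D2:**
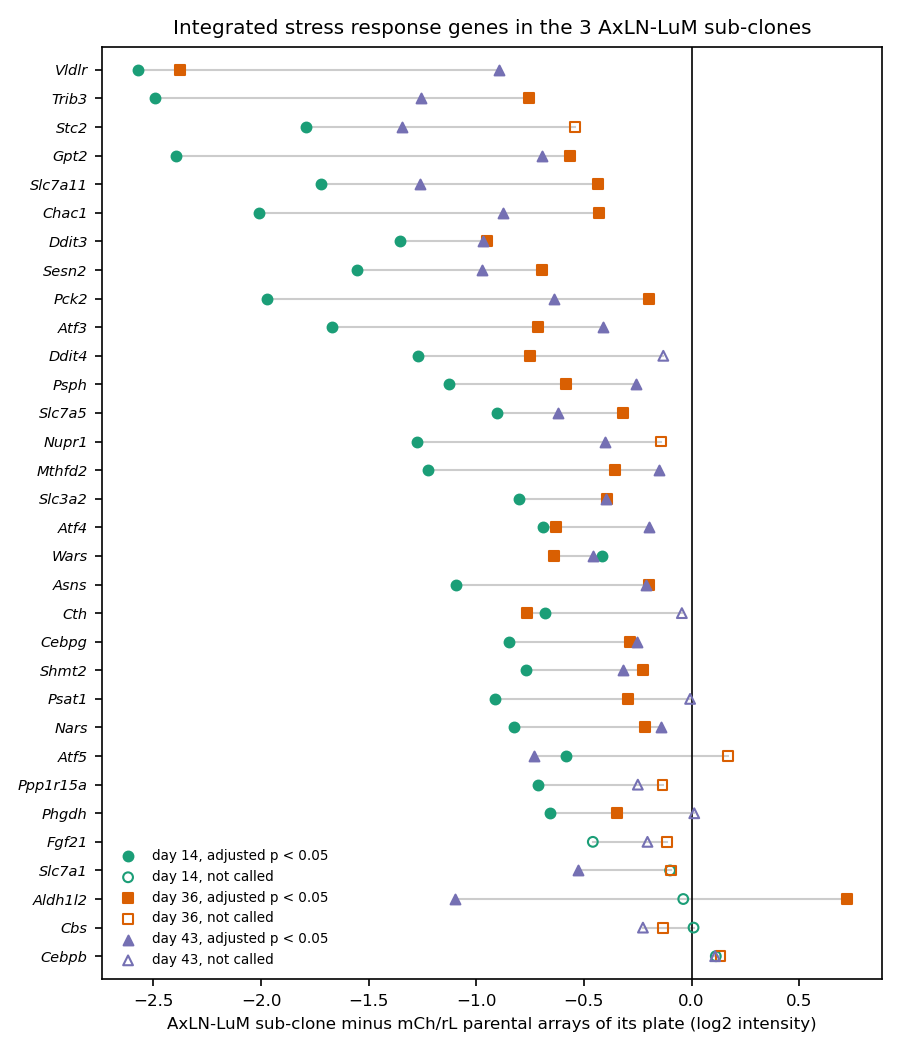
Difference in log2 intensity of each AxLN-LuM sub-clone from the mCh/rL parental arrays of its plate, for the 32 integrated stress response genes above the filter. Circles, squares and triangles stand for days 14, 36 and 43 and are filled where limma between arrays passed an adjusted p under 0.05. Filled symbols lie left of 0 in all but 1 case, Aldh1l2 at day 36.

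Across all genes the differences of the sub-clones from the parental line did not run in parallel. The day 14 sub-clone had 2490 genes called higher and 2350 lower (41.9% of all genes tested), of which 444 changed by 1 log2 unit or more. The day 36 sub-clone had 2264 higher and 2407 lower (40.4%, 304 by 1 unit or more), and the day 43 sub-clone 1625 higher and 2050 lower (31.8%, 153 by 1 unit or more). Without replicate 1 of the plate 2 parental arrays the day 43 count of higher genes was 1015. For scale, the mCh/rL parental arrays of plate 2 against those of plate 1 gave 196 called genes. The differences of days 14 and 43, which share no array, had a correlation of -0.15 across genes, and those of days 36 and 43 of 0.0011 (Pearson, 11565 genes, which are not independent replicates). Of the genes called at day 14, 42.5% were also called at day 43, which is 55.9% of the day 43 genes, and 705 of these 2055 had the same sign. Of those called at day 36, 41.6% were also called at day 43, 52.9% of the day 43 genes, and 800 of 1943 had the same sign. Days 14 and 36 share their parental arrays and were not set against each other in this way.

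**Figure D3:**
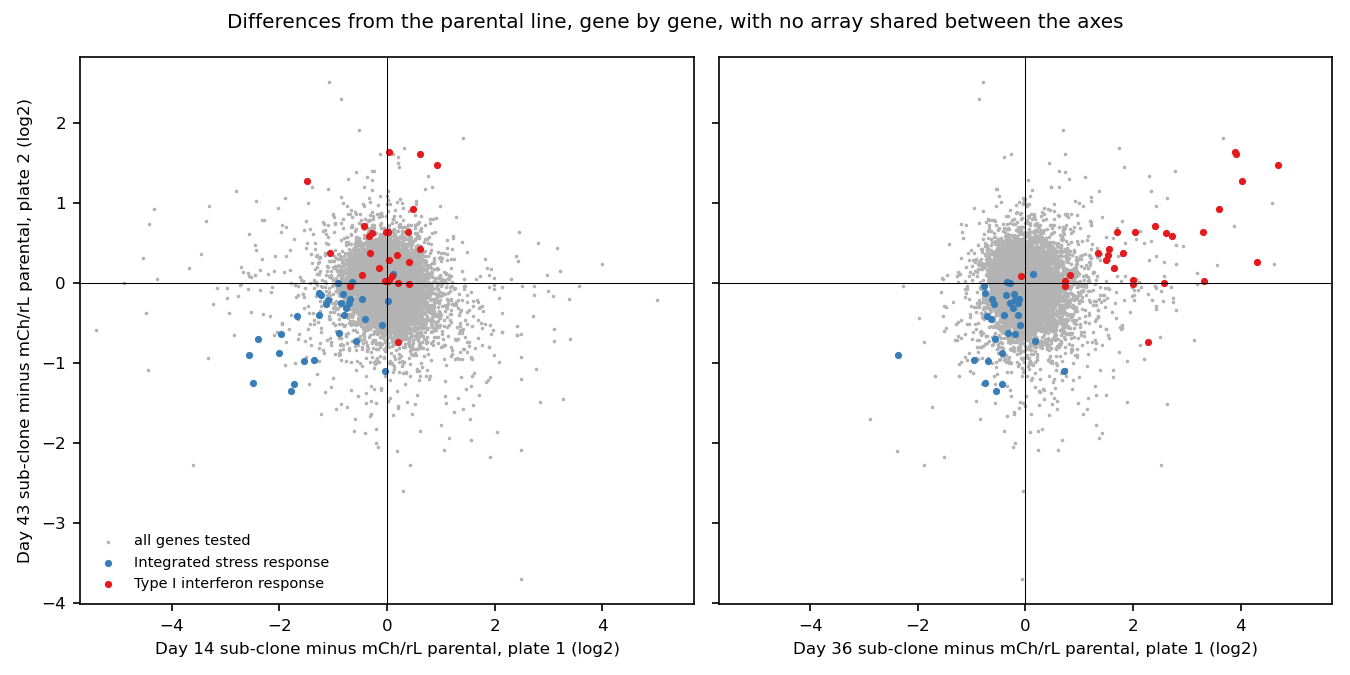
Difference from the mCh/rL parental line in log2 intensity for each of 11565 genes, day 14 (left) or day 36 (right) on the x axis and day 43 on the y axis, so that the axes share no array. Integrated stress response genes (blue) lie mostly in the lower left of both panels, and type I interferon genes (red) spread to the right at day 36, while all genes together show r of -0.15 and 0.0011.

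The day 14 sub-clone was marked by lower epithelial junction genes. All 37 epithelial genes measured lay above the filter. At day 14, 28 were called lower and 0 higher (20.3% and 21.5% of all genes tested), with a median of -0.54. At day 36, 15 were called higher and 3 lower (19.6% and 20.8%), and at day 43, 10 higher and 5 lower (14.1% and 17.7%). The lower count of day 43 does not exceed its share. The tight-junction claudin Cldn3 lay at 29.9, 44.3 and 51.7 at day 14, 1411, 1329 and 1233 at day 36 and 437, 474 and 438 at day 43 in AxLN-LuM, against 944 and 848 on plate 1 and 950.1 and 966 on plate 2 in mCh/rL. It was far below the parental arrays at day 14, above the parental arrays at day 36 and below them at day 43. Rab25, an epithelial trafficking GTPase, lay at 11.6, 8.73 and 10.6 at day 14, 253, 224 and 252 at day 36 and 282, 258 and 226 at day 43 in AxLN-LuM, against 236 and 241 on plate 1 and 233 and 181 on plate 2 in mCh/rL. Only the day 14 sub-clone passed the test, at -4.54 (adjusted p = 8.2e-23 in limma). Krt14, a basal keratin, lay at 29.6, 30.5 and 22.3 at day 14, 582, 523 and 597 at day 36 and 511, 525 and 449 at day 43 in AxLN-LuM, against 264 and 275 on plate 1 and 229.7 and 279 on plate 2 in mCh/rL. It fell at day 14 and rose at days 36 and 43.

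Of the simple keratins, Krt8 differed by 0.11 at day 14 and did not pass, nor did Krt18. Cdh1, E-cadherin, fell by 1.05 on the log2 scale. The mesenchymal filament Vim rose by 0.25. Of 17 mesenchymal genes above the filter 7 were called higher and 4 lower (21.5% and 20.3% of all genes tested), the lower count near its share. The clathrin adaptor Ap1m2, the splicing regulator Esrp2 and the desmosomal cadherin Dsg2 were among the lower genes (-2.98, -1.55 and -2.08). Without the day 14 sub-clone the mean of the other 2 had an epithelial median of 0.11, against -0.12 for all 3.

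Among the largest differences at day 14 were secreted proteins and surface enzymes, and those on no gene list were chosen after their values were seen. Dmp1, a mineral matrix phosphoprotein, lay at 239, 238 and 225 at day 14, 12.5, 14.1 and 13.9 at day 36 and 6.55, 4.92 and 4.41 at day 43 in AxLN-LuM, against 6.61 and 7.83 on plate 1 and 5.93 and 6.15 on plate 2 in mCh/rL. Its day 14 arrays stood far above all others. Il1a, an alarm cytokine, lay at 5.79, 9.06 and 6.87 at day 14, 356, 323 and 327 at day 36 and 215, 183 and 201 at day 43 in AxLN-LuM, against 291 and 319 on plate 1 and 290.3 and 311 on plate 2 in mCh/rL. It was near the median probe set at day 14, lower than the parental arrays by less at day 43, and did not pass at day 36. The day 43 call was lost without replicate 2 of the plate 2 parental arrays (-0.54). The matricellular protein Postn lay at 4.56, 3.27 and 5.48 at day 14, 127, 124 and 102 at day 36 and 190.0, 199 and 202 at day 43 in AxLN-LuM, against 87.8 and 87.2 on plate 1 and 96.4 and 111 on plate 2 in mCh/rL. The stromelysin Mmp3 rose by 3.27 at day 14 and fell by 1.45 at day 43. Slpi, a secreted protease inhibitor, rose by 4.00 at day 14 and by 2.80 at day 36 and did not pass at day 43. The Notch ligand Dll4 (3.40), the vitamin D hydroxylase Cyp24a1 (3.56) and the carbonic anhydrase Car9 (2.50) also rose at day 14, and the ceramide glycosylation enzyme B4galt6 (-4.89) and the membrane protein Mal2 (-4.43) fell.

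Genes of growth-factor signaling were called higher more often than lower at day 14, and lower more often than higher at day 43. Of 27 immediate early and ERK feedback genes, 13 were called higher and 7 lower at day 14 (21.5% and 20.3% of all genes tested), 6 higher and 10 lower at day 36 (19.6% and 20.8%), and 0 higher and 13 lower at day 43 (14.1% and 17.7%). The lower count of day 14 and the higher count of day 36 lie near those shares. Spry4, a feedback inhibitor of receptor tyrosine kinases, lay at 128, 130.4 and 130.3 at day 14, 35.7, 30.6 and 27.9 at day 36 and 19.6, 22.8 and 16.6 at day 43 in AxLN-LuM, against 43.2 and 44.0 on plate 1 and 32.9 and 43.4 on plate 2 in mCh/rL. The day 14 arrays were above and the arrays of days 36 and 43 below the parental arrays of their plates, and the day 36 call was lost without replicate 2 of the plate 1 parental arrays (-0.47) or without replicate 3 of day 36 (-0.40). The early growth response factors Egr1 and Egr3 rose at day 14 (1.60 and 2.45), and the ERK phosphatase Dusp6 rose at day 14 (1.27) and fell at day 43 (-0.26).

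The day 36 sub-clone was marked by interferon-stimulated genes. Of 35 genes listed, 29 were measured and 27 lay above the filter. At day 36, 26 of them were called higher and 0 lower (19.6% and 20.8% of all genes tested), with a median of 2.04. At day 14, 7 were called higher and 6 lower, near the shares of all genes (21.5% and 20.3%), with a median of 0.03. At day 43, 15 were called higher and 1 lower (14.1% and 17.7% of all genes), with a median of 0.37. Usp18, which removes ISG15 and damps the receptor, lay at 19.9, 14.0 and 21.2 at day 14, 271, 226 and 245 at day 36 and 33.7, 39.7 and 44.4 at day 43 in AxLN-LuM, against 6.82 and 13.3 on plate 1 and 14.3 and 13.8 on plate 2 in mCh/rL. All sub-clones exceeded the parental arrays of their plate, day 36 by the most, and the first parental array of plate 1 stood below the other 3. Ifit1, an antiviral RNA-binding protein, lay at 36.7, 44.4 and 37.7 at day 14, 415, 384 and 367 at day 36 and 79.7, 70.0 and 89.2 at day 43 in AxLN-LuM, against 24.6 and 27.0 on plate 1 and 31.3 and 21.7 on plate 2 in mCh/rL. Every AxLN-LuM array exceeded every parental array, least at day 14. Without replicate 1 of the plate 1 parental arrays the day 14 calls of Usp18 (0.45) and Ifit1 (0.54) were lost. The antiviral enzyme Rsad2 (viperin) rose by 2.73 at day 36 and by 0.58 at day 43, and the ubiquitin-like Isg15 by 2.04 and 0.63, and neither passed at day 14. The day 43 call of Rsad2 was lost without either parental array of plate 2. Irf7, a transcription factor that amplifies interferon production, lay at 26.7, 21.1 and 29.7 at day 14, 378, 392 and 371 at day 36 and 28.0, 33.8 and 22.6 at day 43 in AxLN-LuM, against 21.4 and 17.3 on plate 1 and 27.4 and 19.5 on plate 2 in mCh/rL. Day 36 stood clear of all parental arrays, and the differences at days 14 and 43 did not pass (adjusted p = 0.061 and 0.28).

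Most other members were also higher at day 36, and their directions at day 14 differed. Cmpk2, a mitochondrial nucleotide kinase, lay at 7.96, 8.12 and 7.18 at day 14, 335, 374 and 362 at day 36 and 73.1, 64.8 and 55.5 at day 43 in AxLN-LuM, against 22.8 and 20.8 on plate 1 and 22.4 and 31.1 on plate 2 in mCh/rL. It fell at day 14 and rose at days 36 and 43. Parp14, an ADP-ribosyltransferase, showed the same order, with differences of -0.43, 2.41 and 0.71. The nucleic acid sensors Zbp1, Ifih1 and Ddx58 (RIG-I) rose at day 36 by 3.90, 1.54 and 1.71, and at day 43 by 1.64, 0.34 and 0.63. Stat2 and Irf9 rose at day 36 by 1.5 and 2.58, and neither passed at day 14 or 43. Ifit3 passed in no sub-clone.

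Over the 3 sub-clones the means of all 27 genes were higher than in mCh/rL, but 9 were higher at an unadjusted p under 0.05 and none passed after adjustment. GFP/fL minus mCh/rL had a median of -0.30 over the list. Its median in AxLN-LuM was 0.87 with the day 36 sub-clone and 0.14 without it. In the AxLN sub-clones the median against mCh/rL was 1.48, and AxLN-LuM minus AxLN had 0 of 27 genes at an unadjusted p under 0.05 in either direction. Tyk2, the receptor kinase named by the rule, lay at 108, 87.9 and 100.1 at day 14, 106, 101 and 106 at day 36 and 109, 84.3 and 89.9 at day 43 in AxLN-LuM, against 64.9 and 67.9 on plate 1 and 78.0 and 59.7 on plate 2 in mCh/rL. All AxLN-LuM arrays were above all parental arrays, and day 36 did not stand out from the others.

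Class I antigen processing genes were higher in the same sub-clone. Of 16 class I genes, 13 were called higher and 1 lower at day 36, where 19.6% and 20.8% of all genes tested were, with a median of 0.95. At day 14, 4 were called higher and 3 lower (21.5% and 20.3%), and at day 43, 2 higher and 3 lower (14.1% and 17.7%). The counts of days 14 and 43 lie near those shares. The immunoproteasome subunit Psmb8 lay at 231, 238 and 230.1 at day 14, 487, 508 and 571 at day 36 and 213, 213 and 219.6 at day 43 in AxLN-LuM, against 209 and 219 on plate 1 and 211 and 225 on plate 2 in mCh/rL. The peptide transporter Tap1 rose by 1.46 at day 36. Cd274, the checkpoint ligand PD-L1, rose by 0.71 at day 14 and by 1.2 at day 36, and its day 43 difference of 0.34 did not pass. Its day 14 call was lost without replicate 1 of the plate 1 parental arrays (0.47). Of 15 chemokines, 5 were called higher and 2 lower at day 36, against about 1 in 5 of all genes tested in each direction (19.6% and 20.8%). More chemokines were called higher at day 43, with 7 higher and 0 lower (14.1% and 17.7% of all genes tested). In the day 14 sub-clone 1 was called higher and 7 lower (21.5% and 20.3%). The monocyte chemokine Ccl2 lay at 8.45, 10.9 and 11 at day 14, 429, 433 and 409 at day 36 and 25.1, 21.0 and 30.1 at day 43 in AxLN-LuM, against 20.3 and 15.3 on plate 1 and 12.2 and 13.1 on plate 2 in mCh/rL. It was far above the parental arrays at day 36, above them at day 43 and below them at day 14, and the calls of days 14 and 43 were each lost without replicate 1 of the parental arrays of that plate (-0.61 and 0.94). Ccl5, a T-cell chemokine, rose by 2.78 at day 36 and by 1.40 at day 43. The interleukin receptor Il18r1, chosen after its values were seen, rose by 4.62 at day 36, and the growth factor receptor Fgfr1 by 2.80. Arfgef3, of a family of exchange factors for Arf GTPases, had the lowest difference of all genes tested at day 36, and lay at 63.5, 53.3 and 51.8 at day 14, 12.2, 12.4 and 9.83 at day 36 and 33.2, 27.3 and 25.8 at day 43 in AxLN-LuM, against 86.1 and 83.4 on plate 1 and 88.4 and 98.8 on plate 2 in mCh/rL. It was below the parental arrays in the other sub-clones as well.

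**Figure D4:**
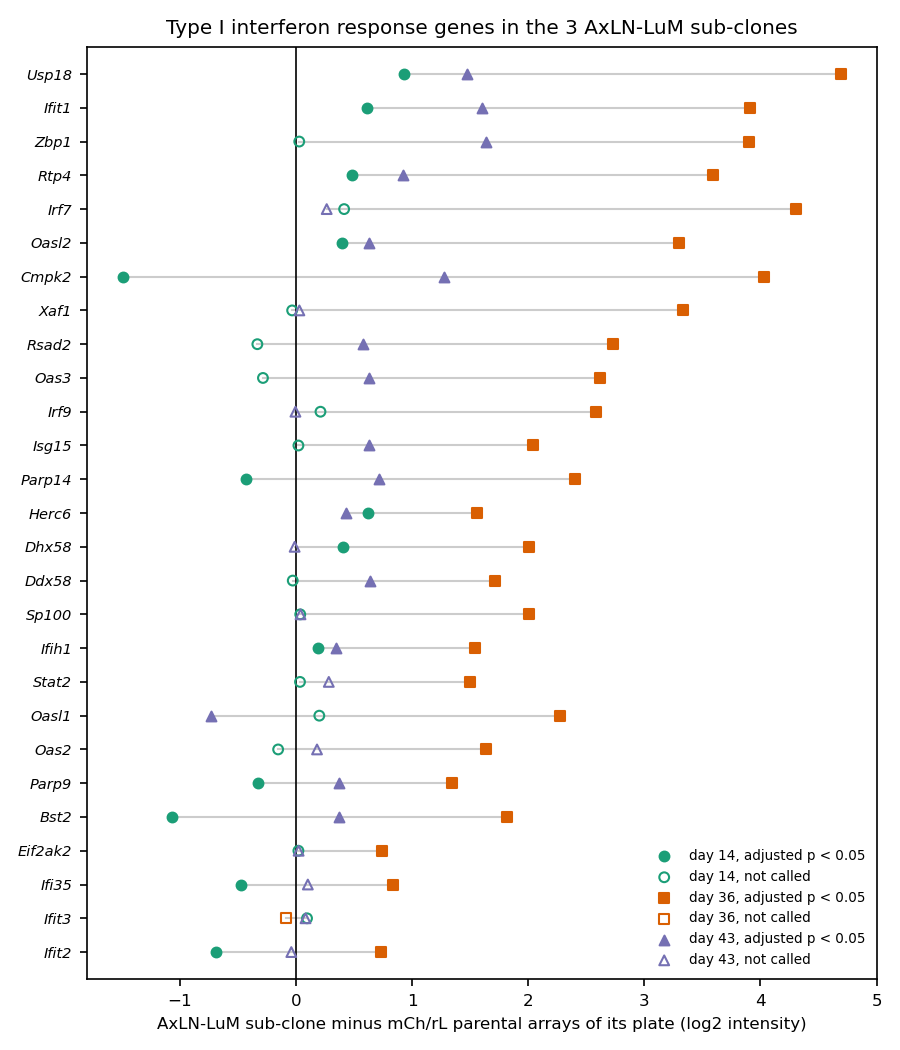
Difference in log2 intensity of each AxLN-LuM sub-clone from the mCh/rL parental arrays of its plate, for the 27 type I interferon response genes above the filter. Circles, squares and triangles stand for days 14, 36 and 43 and are filled where limma between arrays passed an adjusted p under 0.05. The squares (day 36) lie right of the other symbols for every gene but Ifit3.

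In the day 43 sub-clone most hypoxia and glycolysis genes were called higher, and most integrin subunits lower. Of 25 glycolysis and hypoxia genes, 16 were called higher and 2 lower at day 43, where 14.1% and 17.7% of all genes tested were (median 0.30). At day 36, 4 were called higher and 13 lower (19.6% and 20.8% of all genes, median -0.20), the higher count near its share. At day 14, 8 were called higher and 3 lower (21.5% and 20.3%, median 0.03). Bnip3, a mitophagy receptor induced by hypoxia, lay at 162, 157 and 172 at day 14, 112, 109.7 and 102 at day 36 and 349, 364 and 363 at day 43 in AxLN-LuM, against 133 and 153 on plate 1 and 113 and 129.7 on plate 2 in mCh/rL. Day 43 was above and day 36 below the parental arrays. Pdk1, which inhibits pyruvate dehydrogenase, rose by 1.01 at day 43, Adm, a vasodilator peptide, by 1.91 and the hexokinase Hk2 by 0.65. The glycolytic enzyme Gapdh passed in none of the 3 sub-clones. Car9, also induced by hypoxia, did not pass at day 43, and Vegfa, the vascular growth factor, fell by 0.34. The prolyl hydroxylase Egln3 rose by 1.82 at day 14 and by 0.30 at day 43, where its call was lost without replicate 2 of the plate 2 parental arrays (0.27).

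Integrins and mesenchymal genes were lower in that sub-clone. Of 15 integrin subunits above the filter, 9 were called lower and 0 higher at day 43 (17.7% and 14.1% of all genes tested). At day 14, 7 were called higher and 4 lower (21.5% and 20.3%), and at day 36, 8 higher and 2 lower (19.6% and 20.8%). Itga1, a collagen receptor chain, rose by 2.78 at day 14 and fell by 1.07 at day 43. Of 17 mesenchymal genes, 11 were called lower and 0 higher at day 43, where 17.7% and 14.1% of all genes tested were. The medians at day 43 were -0.30 for the integrins and -0.36 for the mesenchymal genes. By values only, the removed sub-clone number 5, also of plate 2, had medians of -0.28 and -0.34. These lower values are therefore not particular to day 43. Sub-clone, day and plate cannot be told apart here either, and the part of the plate was not tested. Pdgfra, a receptor tyrosine kinase, lay at 311, 276 and 285 at day 14, 181, 203 and 193 at day 36 and 27.0, 31.9 and 51.3 at day 43 in AxLN-LuM, against 90.8 and 123 on plate 1 and 85.0 and 92.4 on plate 2 in mCh/rL. Days 14 and 36 were above and day 43 below the parental arrays. Pdgfra also stands among the fibroblast markers, of which the collagen Col1a1 lay at 10.3 to 19.4 in AxLN-LuM and 12.5 to 16.1 in mCh/rL and the proteoglycan Dcn at 5.31 to 9.45 in AxLN-LuM and 4.67 to 9.76 in mCh/rL.

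Hhip, Osr1, Jag2 and Nptx1, among the most changed genes of day 43, were likewise chosen after their values were seen. The Hedgehog antagonist Hhip lay at 909, 964 and 1017 at day 14, 165, 160.4 and 166 at day 36 and 11.8, 10.6 and 14.3 at day 43 in AxLN-LuM, against 169 and 172 on plate 1 and 156 and 160.3 on plate 2 in mCh/rL. The sub-clones of days 14 and 43 left the parental level in opposite directions. The transcription factor Osr1 lay at 174, 180.1 and 191 at day 14, 153, 129 and 147 at day 36 and 27.1, 31.4 and 26.0 at day 43 in AxLN-LuM, against 147 and 147 on plate 1 and 164 and 176 on plate 2 in mCh/rL. It fell at day 43 alone. The neutrophil chemokine Cxcl3 lay at 4.56, 3.28 and 6.52 at day 14, 9.07, 5.01 and 3.95 at day 36 and 55.3, 52.0 and 52.5 at day 43 in AxLN-LuM, against 9.56 and 9.82 on plate 1 and 8.02 and 10.9 on plate 2 in mCh/rL. It rose at day 43, and its parental level was near the median probe set. The plasminogen activator inhibitor Serpinb2 rose by 2.29 at day 43, the Notch ligand Jag2 fell by 2.28 and the neuronal pentraxin Nptx1 fell by 2.09. In the day 14 sub-clone Nptx1 was higher than in the parental line, by 2.48.

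Sterol synthesis genes were mostly lower in the sub-clones of days 14 and 36. Of 19 cholesterol synthesis genes, 18 were called lower and 1 higher at day 14 (median -0.60). At day 36, 15 were called lower and 2 higher (median -0.33), and at day 43, 3 lower and 3 higher (median 0.01). Of all genes tested, 20.3% were called lower and 21.5% higher at day 14, and 20.8% and 19.6% at day 36. At day 43 these shares were 17.7% and 14.1%, and the counts of the list lie near them. Lss, which closes the sterol ring, was lower in all 3 (-0.64, -0.50 and -0.37), though its day 43 call was lost without replicate 2 of the plate 2 parental arrays (-0.31). Squalene epoxidase, Sqle, fell at days 14 and 36 (-0.66 and -0.50) and rose at day 43 (0.36). Among the 3 sub-clones tested day 43 was the single one on plate 2, so that sub-clone, day and plate cannot be told apart between them. By values only, the removed sub-clone number 5, also of plate 2, had a median of -1.39, with all 19 genes below the parental arrays. The AxLN sub-clones, from both plates, had a median of -0.66. The part of the plate in the day 43 values was not tested.

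Proliferation lists had medians close to that of all genes. The median difference over the 3 sub-clones was -0.06 for 41 S phase genes and 0.01 for 54 G2 and M phase genes. In the day 36 sub-clone 18 S phase and 19 G2 and M phase genes were called lower and 2 and 5 higher, where 20.8% of all genes tested were called lower and 19.6% higher. In the day 14 sub-clone 13 and 6 were called lower and 5 and 19 higher (20.3% and 21.5%), so the G2 and M phase genes went the other way there. At day 43, 6 and 10 were called lower and 8 and 10 higher (17.7% and 14.1%), near those shares. Rrm2, the ribonucleotide reductase subunit, lay at 1074, 1242 and 1129 at day 14, 634, 566 and 561 at day 36 and 779.6, 823 and 806 at day 43 in AxLN-LuM, against 1136 and 1007 on plate 1 and 1003 and 966 on plate 2 in mCh/rL. It fell at days 36 and 43, though not at day 43 without replicate 1 of the plate 2 parental arrays (-0.27, which did not pass). The atypical repressor E2f8 rose at day 14 (0.76) and fell at day 43 (-0.46). Hdac11, the histone deacetylase that the study followed, lay at 19.1, 23.4 and 21.0 at day 14, 26.1, 37.3 and 45.4 at day 36 and 37.5, 32.1 and 31.9 at day 43 in AxLN-LuM, against 34.1 and 22.9 on plate 1 and 27.6 and 26.1 on plate 2 in mCh/rL. The groups overlapped, its mean difference was 0.09 (SE 0.16), and it passed in no sub-clone. Of further chromatin and cell cycle genes, Cdc6, Plk1, Tipin, Espl1, Cdca3, Fam83d and E2f7 had mean differences between -0.15, that of Mcm3, and 0.12, that of Ezh1, and none was called between sub-clones.

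Against the AxLN sub-clones the 3 AxLN-LuM sub-clones tested were higher in proliferation genes and lower in inflammatory ones. AxLN-LuM minus AxLN was higher at an unadjusted p under 0.05 for 28 of 54 G2 and M phase genes (median 0.35) and 18 of 41 S phase genes (median 0.40), where 5.64% of all genes tested were, with 0 lower in either list. It was lower for 5 of 15 chemokines (median -0.98) and 7 of 16 colony-stimulating factors and interleukins (median -0.64), with 0 higher. Against mCh/rL the AxLN sub-clones themselves had medians of -0.37 for the G2 and M phase list, -0.46 for the S phase list and 1.49 for the chemokines. The removed AxLN-LuM sub-clone number 5, by values only, had medians of -1.56, -0.81 and 0.05 against its parental arrays. In both proliferation lists it thus lay below the AxLN sub-clones, unlike the 3 tested, and for chemokines it lay below them too. The higher proliferation values therefore hold only with that sub-clone left out. After adjustment limma called 0 genes in this contrast.

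Genes of thiopurine handling were looked at because the sub-clones had been kept under thioguanine. Hprt, the salvage enzyme that activates thioguanine, differed by -0.24 at day 14, -0.33 at day 36 and 0.43 at day 43, each passing between arrays, and the day 14 call was lost without either parental array of plate 1. Tpmt, which methylates thiopurines, passed in no sub-clone. Over the 17 members the medians were -0.02, -0.23 and 0.16.

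**Figure D5:**
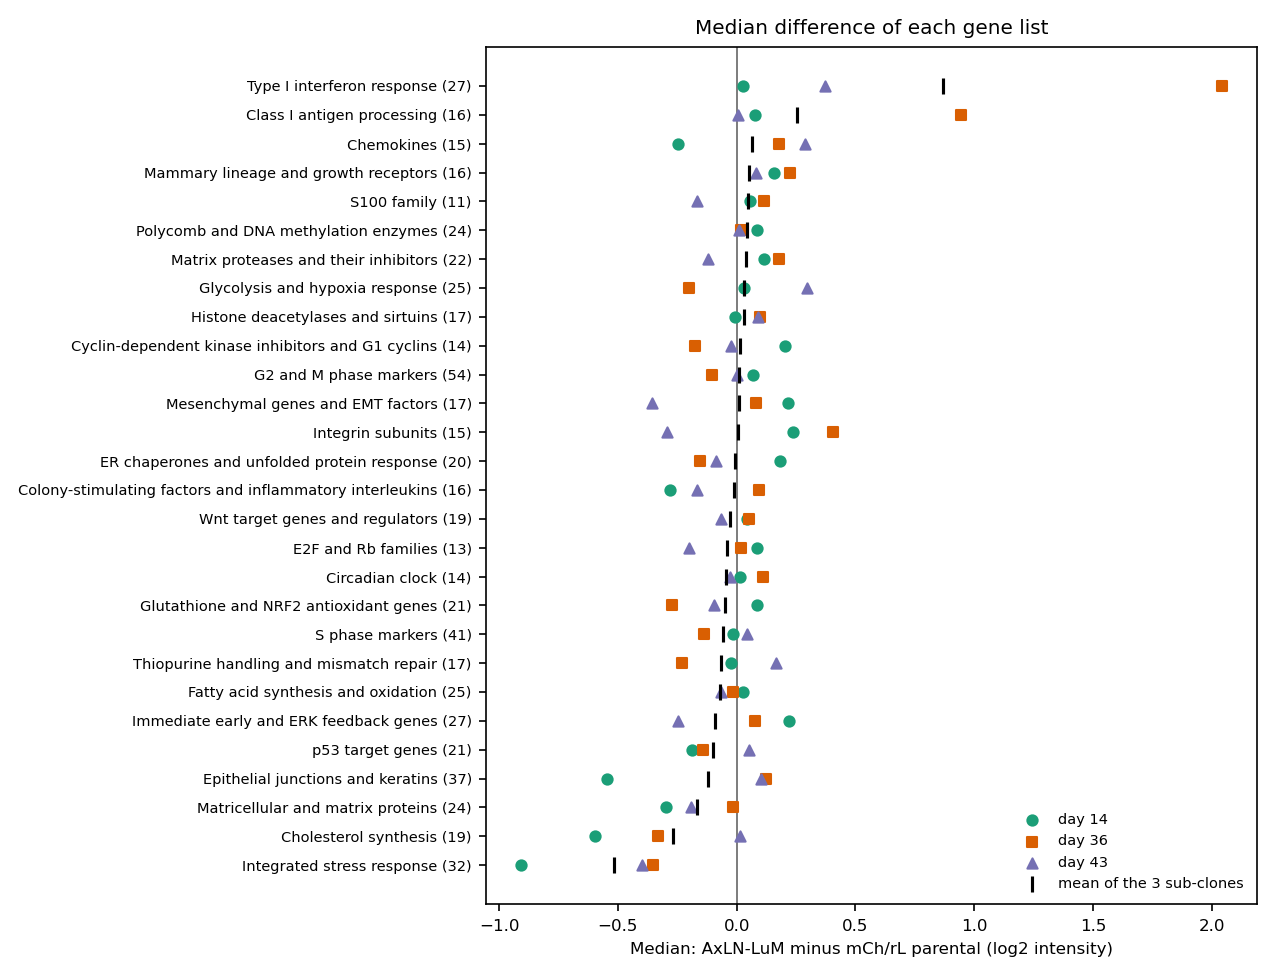
Median difference in log2 intensity, AxLN-LuM minus mCh/rL parental, over the members above the filter of each list with at least 10 of them (number in parentheses). Colored symbols are the sub-clones of days 14, 36 and 43 and vertical bars the mean of the 3 sub-clones. The integrated stress response is the lowest list with all 3 symbols left of 0, and the interferon list reaches its high value by the day 36 sub-clone.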

How the data were processed

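The 48 arrays were Affymetrix Mouse Gene 2.1 ST gene arrays of cultured 4T1 lines. The deposited values were linear intensities, which the authors made by RMA in Affymetrix Expression Console, plate by plate, with the 2 plates then scaled by the ratio of their cumulative expression. The version and the genome build are not given in the sources used here. Of 41345 probe sets, 23521 carried 1 gene symbol in the platform annotation, and the brightest probe set of each of 18964 protein-coding genes was kept. Tests covered the 11565 genes whose mean reached the median of all probe sets, and used values on the log2 scale in limma 3.58.1 in R 4.3.3. Plates were taken as the first and last 24 columns of the table, each holding its own parental arrays, and the parental mean of the plate was subtracted.

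In the main test each sub-clone entered as the mean of its arrays, with 1 spread over 8 sub-clones (2 MFP, from mammary fat pad tumors, 3 AxLN and 3 AxLN-LuM). Each sub-clone was also tested against the 2 parental arrays of its plate in a fit over all 48 arrays. Adjusted p-values are Benjamini-Hochberg over all genes tested, with a threshold of 0.05. The genes named were up to 14 in each direction with all 3 sub-clones on one side and an unadjusted p under 0.001, up to 4 members of a list by lowest p and up to 2 by spread, and Hdac11 with a set of chromatin and cell cycle genes. Other list members and the extremes of single sub-clones were named after their values were seen. The groups and gene lists were chosen with earlier results of these data known. The tests were also run on simulated data, but the outcome is not given here and no result rests on it. Promoter sequences are from RefSeq (GRCm38.p6), matched by symbol.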

Additional observations from a re-analysis of the deposited data

Results flagged for a closer look

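In 6 of 113 named genes tested 1 of the 4 mCh/rL parental arrays stood apart from the other 3, by the ratio of its gap to the range of the 4 (chance gives about 1 in 20 such groups, so that this share lies near it). For Usp18 the ratio was 0.897, with replicate 1 of plate 1 at 6.82 and the others at 13.3 to 14.3. For Spry4 it was 0.944 (32.9 in replicate 1 of plate 2, the others 43.2 to 44.0), for Rab25 0.884 (181 in replicate 2 of plate 2, the others 233 to 241), for Gm5936 0.843 (8.42 in replicate 2 of plate 1, the others 19.2 to 22.4), for Phlda1 0.847 (323 in replicate 1 of plate 2, the others 278 to 284) and for Mcm3 0.830 (1291 in replicate 1 of plate 1, the others 1215 to 1227).

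Ddit3, Vegfa and Egln3 lay on opposite sides of the mCh/rL arrays in all sub-clones of AxLN-LuM and of AxLN. For Ddit3, AxLN-LuM minus AxLN was -2.37 (adjusted p = 0.19 in limma, not called), from differences against mCh/rL of -1.35, -0.95 and -0.97 in AxLN-LuM and 0.59 to 1.62 in AxLN. For Vegfa it was -0.526 (adjusted p = 0.30 in limma), from -0.38, -0.20 and -0.34 in AxLN-LuM and 0.11 to 0.40 in AxLN. For Egln3 it was 0.989 (adjusted p = 0.45 in limma), from 1.82, 0.22 and 0.30 in AxLN-LuM and -0.52 to -0.027 in AxLN.

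The removed AxLN-LuM sub-clone number 5 of day 14, which entered no test, differed from the mCh/rL arrays of its plate by a median of 0.80 over the interferon genes, -1.39 over cholesterol synthesis, -0.81 over S phase, -1.56 over G2 and M phase and 0.59 over the circadian clock genes.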

How the results depend on the processing

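The count of 0 genes between sub-clones stayed at 0 with both parental lines as baseline, with quantile normalization, with the stricter filter and with log2(intensity + 16). It became 1 lower gene (Cyp2c66) without the intensity filter and between 0 and 3 higher when 1 sub-clone was left out, the 3 being without day 43. Arrays as replicates gave 150 higher and 197 lower, and the sub-clone as random block 2 (Pdzrn3 and Ubn2) and 6 (Arfgef3, Atp1b1, Fkbp11, Hax1, Herpud1 and Phf10). With a replicate block they gave 94 and 134. The replicate numbers did not pair the arrays, since the deviations of same-numbered arrays correlated between -0.08 and 0.04 over 23 pairs. Within plate 1 the arrays gave 2110 higher and 2113 lower, and within plate 2 1625 and 2050. The study's screening criteria, taken against the 4 mCh/rL arrays in place of the mean of both parental lines and met in all 3 sub-clones, gave 7 higher (Ccng2, Dyrk1b, Gbp9, Ifit1, Oas1g, Plat and Zfp345) and 1 lower (Cyp2c66). With 1 parental or sub-clone array left out the day 43 count of higher genes lay between 1015 and 1631. Sub-clone number 5 moved the medians of cholesterol synthesis to -0.62, S phase to -0.25 and G2 and M phase to -0.40 and the mean of Hdac11 to 0.67, and plate 2 alone those of glycolysis to 0.30 and S phase to 0.043. Signs turned for uncalled means of Hdac11 (-0.029 within plate 1, -0.037 to 0.34 with 1 sub-clone left out), Ezh1 (-0.068 within plate 2, -0.058 to 0.22 with 1 sub-clone left out) and Mcm3 (0.084 within plate 2). With both parental lines as baseline they turned for the day 36 differences of Gpt2 (0.14), Slc7a11 (0.11) and Chac1 (0.10) and for Atf4 at day 43 (0.017). The cause was not tested. Of the remaining values, 367 of named mean differences and 2048 of sub-clone differences kept their direction and their side of the threshold, and 27 calls of single sub-clones were lost. The alternatives for single sub-clones were chosen after seeing the data.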
